A study of Mus musculus with 4 samples.

Results

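The genes described here are 9 genes of mouse chromosome 12 that lie beyond Igha and the enhancers of the IgH 3' regulatory region (3'RR): Tmem121, Crip1, Crip2, Mta1, Pacs2, Brf1, Btbd6, Nudt14 and Jag2. They were picked by name from the genes at this position, with earlier results of these data known but by no rule on their values, and make up 9 of the 41342 named rows of the gene count table. RNA of CD43-negative splenic B cells of the 129 strain was sequenced from 2 genotypes, ΔleftPAL and ΔIRIS, either freshly purified (resting) or after 48 h of culture with 5 µg per ml LPS, a component of bacterial outer membranes to which B cells respond by dividing and by secreting antibody. In ΔleftPAL mice (delta2leftPAL in the labels) the fragment from enhancer hs3a through the left-side intervening sequence (IRIS) to enhancer hs1,2 is deleted. In ΔIRIS mice (deltaIRIS) the left-side IRIS is deleted. By the study, the same fragment was removed as a whole, and hs1,2 and an inverted hs3a were put back. Both genotypes thus lack the left-side IRIS and the native left arm of the 3'RR palindrome. Both keep the enhancers hs3b and hs4 that lie nearest to the 9 genes. There was 1 library per genotype and condition, made by the labels from B cells pooled from 4 animals, whereas the study's methods describe 2 pooled RNAs per genotype, so the number of animals behind a library is uncertain. With 1 library per group, differences have no replicate check and compare libraries, not mice. None of these libraries came from cells cultured without LPS, so LPS and the 48 h of culture cannot be told apart. The wt libraries were not analysed here, so neither genotype can be placed against wt.

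The 3'RR is a cluster of enhancers behind the last constant gene of the immunoglobulin heavy chain locus, active late in B cell development, and it acts over long distances on variable and constant gene promoters. Beyond its last enhancer lies a stretch with binding sites for CTCF, a protein that anchors chromatin loops, and behind that stretch come the genes described here, which do not encode immunoglobulins. The comparison of the genotypes sets one altered 3'RR against the other: it asks whether genes on the far side are expressed differently when hs3a and hs1,2 are absent than when both are present without the left-side IRIS.

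The ΔleftPAL libraries held 23615496 (resting) and 27777790 (LPS) gene counts and the ΔIRIS libraries 28707002 and 29776108. In that order, the 9 genes together took 5245, 3677, 5283 and 3566 counts, or 0.0222%, 0.0132%, 0.0184% and 0.0120% of each library. Levels are given as CPM, the count scaled to a common library size with TMM factors, and a count of 0 would allow up to 0.102 to 0.123 CPM (3 counts). Intervals of levels and ratios are 95% exact intervals (Poisson and Clopper-Pearson) and cover counting error only. A gene was called apart when log2(CPM + 0.5), a scale that understates differences of low genes, differed by at least 1 (2-fold) between libraries, among the 11286 genes that averaged 50 counts or more over the libraries. Of the 9 genes, 8 passed that minimum, whereas Jag2, with a mean of 23 counts, did not. B cell markers were detected in every library, with a summed level of 8 markers of 4458 and 3799 CPM at rest and 2372 and 2385 CPM after LPS in ΔleftPAL and ΔIRIS cells, but the resting libraries also held erythroid RNA at 41305 and 28663 CPM over 6 markers.

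All 9 genes lie on chromosome 12 of the mm10 assembly. Tmem121 (ENSMUSG00000049036, chr12:113185903-113189520, plus strand) is the nearest, 69.2 kb from Igha, and the gene model lists only Gm25622 in that gap, at 0 counts in the 4 libraries. Crip1 (ENSMUSG00000006360, chr12:113152012-113153877) and Crip2 (ENSMUSG00000006356, chr12:113140236-113145504), both on the plus strand, follow at 105 and 113 kb. Mta1 (ENSMUSG00000021144, chr12:113098278-113137206, plus strand) and Pacs2 (ENSMUSG00000021143, chr12:113014508-113074401, plus strand) lie at 122 and 184 kb. Brf1 (ENSMUSG00000011158, chr12:112959862-113000621, minus strand) lies at 258 kb, and Btbd6 (ENSMUSG00000002803, chr12:112976482-112978930, plus strand) lies within it on the opposite strand, with 0 exon bases in common. Nudt14 (ENSMUSG00000002804, chr12:112934733-112942118) and Jag2 (ENSMUSG00000002799, chr12:112908590-112929495), both on the minus strand, are the farthest, at 317 and 329 kb.

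Tmem121, Crip1 and Crip2 are those of the 8 tested genes that were called in at least 1 comparison, and their promoters are shown for that reason. Each sequence is the 250 bases before the transcription start (RefSeq, GRCm38.p6, plus strand), at chr12:113185653-113185902, chr12:113151762-113152011 and chr12:113139986-113140235, with GC boxes (GGGCGG or its complement CCGCCC) in capitals.
Tmem121: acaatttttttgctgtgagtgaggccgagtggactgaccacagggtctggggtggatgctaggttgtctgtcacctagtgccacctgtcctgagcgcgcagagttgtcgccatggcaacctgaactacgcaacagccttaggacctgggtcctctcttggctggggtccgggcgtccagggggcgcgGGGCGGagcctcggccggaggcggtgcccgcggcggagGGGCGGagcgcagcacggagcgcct
Crip1: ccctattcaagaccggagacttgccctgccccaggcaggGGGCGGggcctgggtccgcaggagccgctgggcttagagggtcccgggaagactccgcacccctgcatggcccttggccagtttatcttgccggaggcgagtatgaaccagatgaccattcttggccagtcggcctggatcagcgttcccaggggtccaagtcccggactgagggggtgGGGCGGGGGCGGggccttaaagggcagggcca
Crip2: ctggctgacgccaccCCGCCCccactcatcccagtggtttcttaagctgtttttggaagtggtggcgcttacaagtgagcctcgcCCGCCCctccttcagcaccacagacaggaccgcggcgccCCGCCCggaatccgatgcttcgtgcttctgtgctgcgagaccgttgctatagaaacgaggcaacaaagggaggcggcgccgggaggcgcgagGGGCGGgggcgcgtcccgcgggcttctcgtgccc

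The Tmem121 promoter held 2 GC boxes, the nearest 19 bases from the start, that of Crip1 held 3 and that of Crip2 held 4. Among 8 of the 9 genes found in the promoter table (Brf1 was not matched), 7 had the same start as the gene model, and GC boxes occurred in all 7, with 3 in Mta1, 7 in Pacs2, 2 in Btbd6 and 5 in Jag2. Over 32851 promoters of the same length, a set that leaves out a chromosome and is called all promoters below, 32.7% held a GC box on either strand. The median GC content of that set was 52.4%. It was 51.6% in the window of Btbd6 and between 66.4% (Tmem121) and 87.2% (Jag2) in the others. None of the 7 held TATAAA, found in 12.4% of all promoters, or the octamer ATGCAAAT, found in 1.60%, and CCAAT (33.8% of all) occurred only in that of Pacs2, 2 times. The 7 promoters were rich in CpG, with 10 in Btbd6, 13 in Crip1, 20 in Tmem121, 26 in Crip2, 39 in Mta1, 50 in Pacs2 and 54 in Jag2, against a median of 6 over all promoters. These matches describe the windows and are not evidence of binding.

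Crip1, which encodes a small zinc-binding LIM protein, had by far the highest level of the 9 genes in every library. Per kb of exon it stood at 257 CPM at rest and 93.0 CPM after LPS in ΔleftPAL and at 193 and 85.8 CPM in ΔIRIS. Brf1 came next in each library, between 9.49 and 13.5 CPM per kb, and after LPS its interval overlapped that of Mta1 in both genotypes (11.6 and 10.8 CPM per kb in ΔleftPAL, 9.49 and 9.08 in ΔIRIS). Nudt14 held rank 4 in each, between 4.63 and 5.46 CPM per kb, and at rest its interval overlapped that of the gene before and after it. Jag2 was lowest in each, at 0.242 and 0.110 CPM per kb in ΔleftPAL and 0.390 and 0.0842 in ΔIRIS, and no interval overlapped its own. Crip2 had the least stable rank: it stood at 3.85 and 6.10 CPM per kb in resting ΔleftPAL and ΔIRIS cells (ranks 6 and 3), and at 0.930 and 0.665 after LPS (rank 8 in both), where its interval overlapped that of Tmem121.

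**Figure D1:**
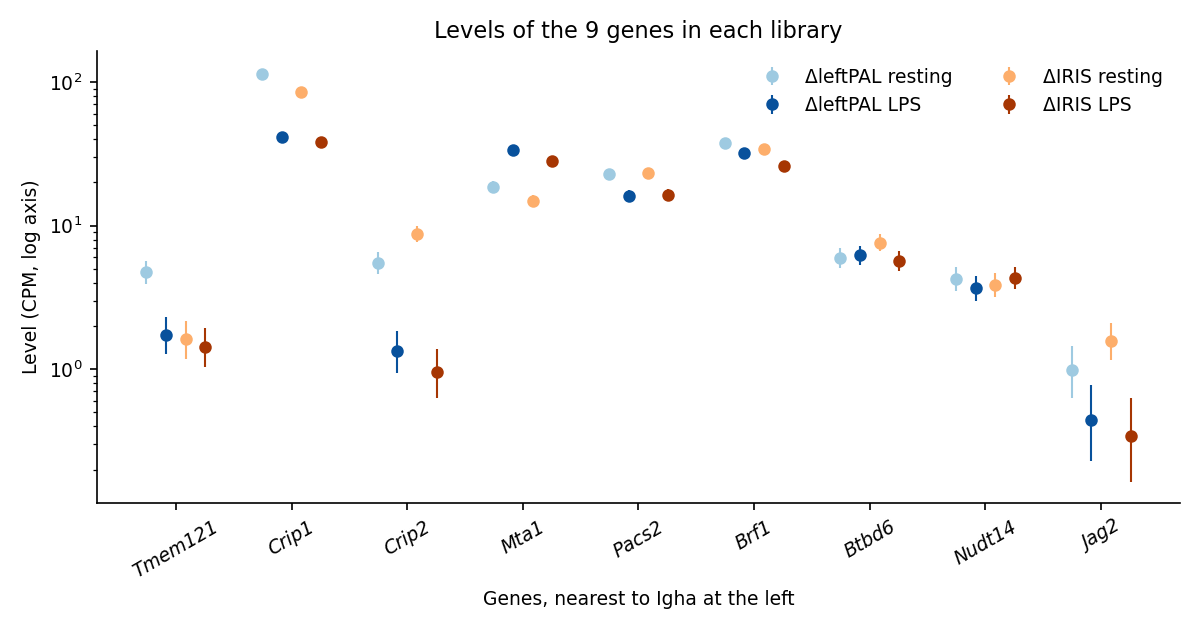
Level of each of the 9 genes in the 4 libraries, in CPM on a log axis, with genes ordered by distance from Igha; points are single libraries and bars are 95% exact Poisson intervals of counting error. Tmem121 stood at 4.75 CPM in resting ΔleftPAL cells and between 1.43 and 1.74 CPM in the other 3 libraries, whereas Crip1, Crip2 and Jag2 were lower after LPS in both genotypes.

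Between the genotypes at rest, Tmem121, a membrane protein of little known function and the gene nearest to the 3'RR, was the only one of the 8 tested genes past the 2-fold limit. It had 116 counts in resting ΔleftPAL and 47 in resting ΔIRIS cells, or 4.75 CPM (3.92 to 5.70) and 1.62 CPM (1.19 to 2.15). The level was thus 2.94-fold lower in ΔIRIS (interval 2.08 to 4.22), a log2 ratio of -1.55. On the scale used for the calls, 0.381% of the tested genes lay at least as far in this direction, and so did 11 of the 1462 genes (0.752%) whose mean count was within a factor of 2 of its own. The share of all tested genes called lower in resting ΔIRIS cells was 1.02%, with 1 of the 8 called, and the share called higher was 1.83%, with 0 of the 8. With a prior of 5 CPM in place of 0.5 the call of Tmem121 was lost, while 5 other scalings or tables left its log2 ratio between -1.61 and -1.54. Igha, the nearest constant gene on the other side of the enhancers, was lower in the same library, at 213 counts against 748, a log2 ratio of -2.06 (-2.29 to -1.84). Ighm, farther into the locus, stood at -0.15 (-0.16 to -0.14). After LPS, Igha fell to 18 counts in ΔleftPAL and 12 in ΔIRIS, and its genotype interval included 0 (-0.71, -1.89 to 0.43). Whether the resting values of Tmem121 and Igha are related was not tested.

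The other genes differed less between the resting libraries. Crip2 had 135 counts in ΔleftPAL and 255 in ΔIRIS, 5.53 and 8.77 CPM, 1.59-fold higher in ΔIRIS (1.28 to 1.97). Crip1 had 2792 and 2491 counts, 114 and 85.7 CPM, and was 1.33-fold lower in ΔIRIS (1.26 to 1.41). Of these neighbouring LIM genes, Crip2 was thus the higher and Crip1 the lower in ΔIRIS, each by more than counting error alone.

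Mta1, a subunit of the NuRD chromatin remodelling and deacetylase complex, had 457 and 434 counts (log2 ratio -0.33, -0.52 to -0.13). Btbd6, a BTB protein that serves as adaptor for cullin 3 ubiquitin ligases, had 146 and 221 counts (0.35, 0.04 to 0.66). The intervals of the remaining 4 included 0. They were Pacs2, a sorting protein of the early secretory and endosomal pathway (560 and 679 counts, 0.03), Brf1, the TFIIIB subunit that brings RNA polymerase III to its promoters (911 and 997, -0.12), Nudt14, a Nudix hydrolase of UDP-glucose (104 and 113, -0.13), and Jag2, a transmembrane ligand of Notch receptors (24 and 46, 0.69, -0.05 to 1.46). Counting intervals alone separated 57.3% of all tested genes between the resting libraries, with 5 of the 8 among them, so an interval without 0 does not set these genes apart. Over the 8 tested genes the median log2 ratio was -0.12, against 0.00019 over all tested genes, and the median size regardless of sign was 0.32 against 0.21.

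Markers of other cell types differed between the resting libraries as well, and in a bulk sample fewer cells of a type and less RNA per cell cannot be told apart. Of 8 T cell markers, 6 were lower in resting ΔIRIS cells, among them Trac at 4 counts against 44, Cd3g at 11 against 50 and Cd3d at 18 against 47. Cd4 and Cd8a were higher (496 against 273 and 202 against 84 counts), and the summed level of the list was 26.2 CPM in ΔleftPAL and 28.0 CPM in ΔIRIS. All 4 NK cell markers were lower in ΔIRIS, at a sum of 4.23 against 7.41 CPM. Of 6 myeloid markers 3 were higher and 3 lower, with S100a8 at 20 counts against 86 and S100a9 at 24 against 128, and a sum of 474 against 360 CPM. Of 6 erythroid markers 5 were lower, at a sum of 28663 against 41305 CPM. Of 6 endothelial and stromal markers 3 were higher (Col1a1, Col3a1 and Pdgfrb, the last at 27 counts against 5) and 3 lower, at a sum of 167 against 184 CPM, most of it Pecam1. Of 5 plasmablast markers 4 were higher, at a sum of 848 against 552 CPM, most of it Irf4, at 17554 counts against 6959. Without Irf4, the sum of the plasmablast list was not higher in resting ΔIRIS cells. No defining marker of these lists was at 0 in either resting library, and their part in the values of Tmem121, Crip1 and Crip2 was not tested.

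After LPS, none of the 8 tested genes was called apart between the genotypes, where 0.567% of all tested genes were called higher and 1.41% lower in ΔIRIS. Tmem121 had 47 counts in ΔleftPAL and 42 in ΔIRIS, 1.74 and 1.43 CPM, and its log2 ratio of -0.28 had an interval from -0.92 to 0.35. Crip1 had 1115 and 1119 counts (-0.12, -0.24 to 0.00), and Crip2 had 36 and 28 (-0.48, -1.25 to 0.27). The intervals of Mta1 (904 and 826 counts, -0.25, -0.39 to -0.11) and Brf1 (860 and 766 counts, -0.29, -0.43 to -0.15) did not include 0.

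For the other 4 genes they did: Pacs2 had 436 and 481 counts (0.02), Btbd6 168 and 167 (-0.13), Nudt14 99 and 127 (0.24) and Jag2 12 and 10 (-0.38, -1.75 to 0.95). At 10 to 12 counts per library, no difference of Jag2 was detected, and its interval was wide. Intervals without 0 were found for 47% of all tested genes after LPS, and for 2 of the 8. The median log2 ratio of the 8 genes was -0.17, against 0.026 over all tested genes. In these libraries T cell markers summed to 0.483 CPM in ΔleftPAL and 0.478 CPM in ΔIRIS, with Cd3d, Cd3e and Cd3g at 0 in both, and the NK cell sum was 1.11 and 0.648 CPM. Of the 6 myeloid markers 1 was higher in ΔIRIS (Itgam, 450 counts against 140) and 3 were lower, with S100a8 and S100a9 at 0 in both and sums of 14.1 CPM in ΔleftPAL and 20.0 CPM in ΔIRIS. All 5 plasmablast markers were lower in LPS-activated ΔIRIS cells, at a sum of 992 against 1443 CPM, and 5 of 6 erythroid markers were higher, at a sum of 124 against 58.2 CPM. Of the 8 B cell markers 3 were higher and 5 lower in ΔIRIS, with Cr2 called lower (2515 counts against 4834) and a sum of 2385 against 2372 CPM. The part of these differences in the values of the 9 genes was not tested.

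**Figure D2:**
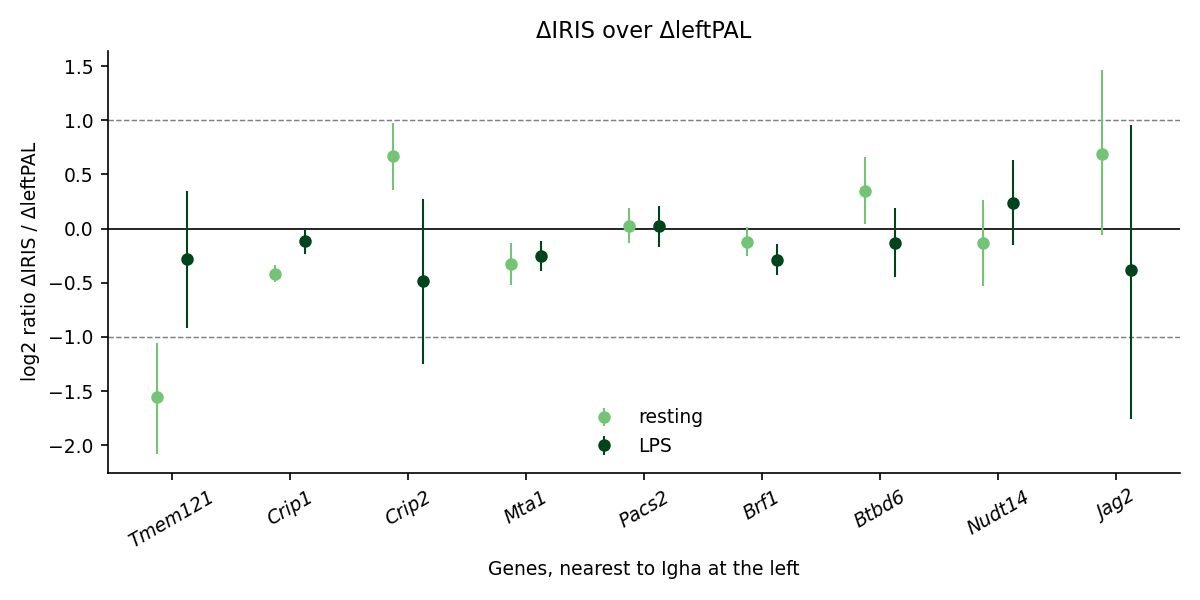
Log2 ratio of ΔIRIS over ΔleftPAL for each gene, ordered by distance from Igha, in resting (light) and LPS-activated (dark) cells; bars are 95% exact Clopper-Pearson intervals of counting error and dashed lines mark 2-fold. Tmem121 at rest lay at -1.55 and is the only point past a dashed line with its whole interval.

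After LPS, Crip1, Crip2 and Jag2 were lower and Mta1 was higher in both genotypes, Tmem121 was lower in ΔleftPAL, and the other 4 genes differed by less than 1.5-fold. In ΔleftPAL cells, 3 of the 8 tested genes were called lower after LPS (Tmem121, Crip1 and Crip2), where 15.5% of all tested genes were, and 0 were called higher, where 20.1% were. In ΔIRIS cells, 2 of the 8 were called lower (Crip1 and Crip2), against 17.3% of all, and 0 higher, against 21.6%. The median log2 ratio of the 8 was -0.36 in ΔleftPAL and -0.39 in ΔIRIS, against 0.12 and 0.13 over all tested genes. The same 2 resting libraries serve here and in the comparison of genotypes at rest, so the values of the comparisons are not independent.

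Of the LIM proteins, Crip1 stood at 114 CPM at rest and 41.4 CPM after LPS in ΔleftPAL, 2.76-fold lower (2.58 to 2.96), and at 85.7 and 38.2 CPM in ΔIRIS, 2.24-fold lower (2.09 to 2.41). Crip2 stood at 5.53 and 1.34 CPM in ΔleftPAL, 4.14-fold lower (2.85 to 6.15), and at 8.77 and 0.955 CPM in ΔIRIS, 9.18-fold lower (6.20 to 14.1). Both genotypes thus had lower levels of both genes after LPS, and the fold of Crip2 exceeded that of Crip1 beyond counting error in ΔIRIS, while in ΔleftPAL their intervals overlapped.

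Jag2, not among the tested genes, was low throughout, at 24 counts at rest and 12 after LPS in ΔleftPAL (log2 ratio -1.14, -2.28 to -0.09) and 46 and 10 in ΔIRIS (-2.21, -3.37 to -1.21). Tmem121 was 2.72-fold lower after LPS in ΔleftPAL (1.92 to 3.91), at 1.74 against 4.75 CPM. In ΔIRIS it stood at 1.62 CPM at rest and 1.43 CPM after LPS, a log2 ratio of -0.17 whose interval, -0.81 to 0.46, included 0. The resting ΔleftPAL library is therefore the one of the 4 in which Tmem121 was high.

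Mta1 was higher after LPS in both genotypes, at 18.7 and 33.6 CPM in ΔleftPAL (1.79-fold, 1.60 to 2.01) and 14.9 and 28.2 CPM in ΔIRIS (1.89-fold, 1.68 to 2.13), under the 2-fold limit, although kallisto estimated counts placed it past that limit in ΔIRIS (log2 ratio 1.07). Pacs2 was lower by nearly the same amount in both, at 22.9 and 16.2 CPM (log2 ratio -0.50, -0.69 to -0.32) and 23.4 and 16.4 CPM (-0.51, -0.68 to -0.34). Over the other scalings and tables its ratio ranged from -0.73 to -0.37 in ΔleftPAL and from -0.76 to -0.34 in ΔIRIS. Brf1 was lower by less, at 37.3 and 31.9 CPM in ΔleftPAL (-0.22, -0.36 to -0.09) and 34.3 and 26.1 CPM in ΔIRIS (-0.39, -0.53 to -0.25), with a range over the other scalings and tables from -0.46 to -0.10 in ΔleftPAL and from -0.62 to -0.20 in ΔIRIS.

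The small differences of Btbd6 and Nudt14 had opposite signs in the genotypes. Btbd6 stood at 5.98 and 6.24 CPM in ΔleftPAL (0.06, -0.27 to 0.39) and 7.60 and 5.70 CPM in ΔIRIS (-0.42, -0.71 to -0.12). Nudt14 stood at 4.26 and 3.67 CPM in ΔleftPAL (-0.21, -0.62 to 0.20) and 3.89 and 4.33 CPM in ΔIRIS (0.16, -0.22 to 0.54). Only the ratio of Btbd6 in ΔIRIS had an interval without 0, and on TPM both genes were lower after LPS in both genotypes. Opposite signs occurred in 11.3% of all tested genes.

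**Figure D3:**
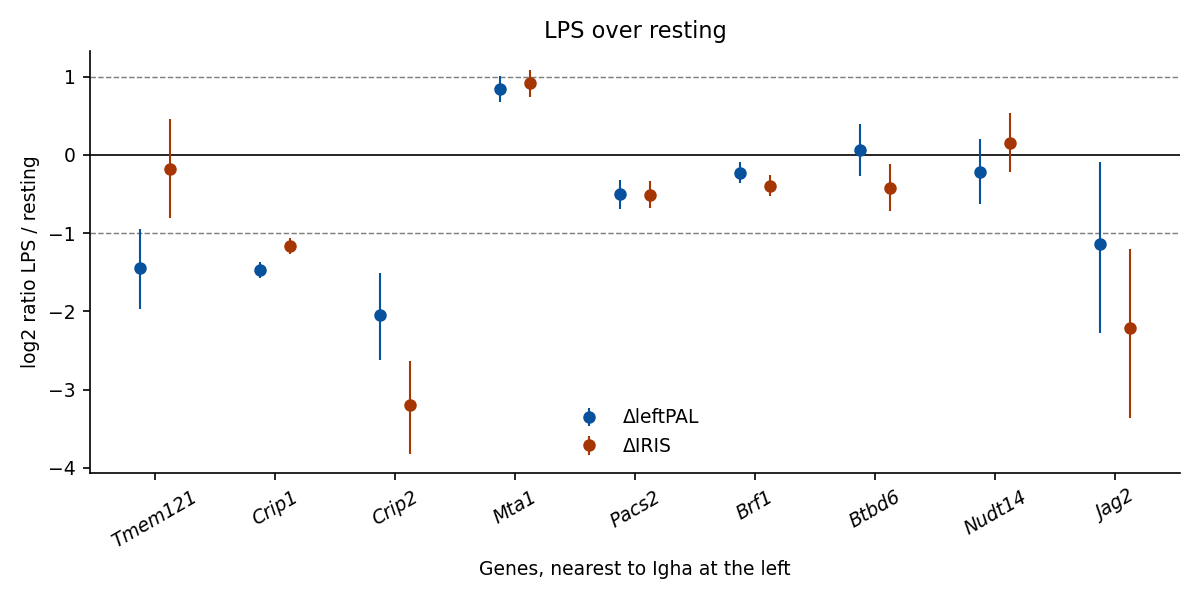
Log2 ratio of LPS-activated over resting cells in ΔleftPAL (blue) and ΔIRIS (orange) for each gene, ordered by distance from Igha; bars are 95% exact Clopper-Pearson intervals of counting error and dashed lines mark 2-fold. The intervals of the genotypes are apart for Tmem121, Crip1 and Crip2, 3 of the 8 tested genes against 34.9% of all tested genes, and overlap for the other 6 of the 9.

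Set against each other, the LPS ratio of Tmem121 was higher in ΔIRIS than in ΔleftPAL by 1.27 on the log2 scale, that of Crip2 was lower by 1.15 (difference -1.15) and that of Crip1 was higher by 0.30, and for these 3 genes the intervals of the genotypes did not overlap. Such intervals, of counting error alone, were apart for 34.9% of all tested genes, so 3 of the 8 is near the background. They overlapped for Jag2 (difference -1.07), Btbd6 (-0.48), Nudt14 (0.37), Brf1 (-0.17), Mta1 (0.07) and Pacs2 (-0.0067). With 1 library per group the difference between genotypes in the LPS ratio was not tested. Markers of T, NK, myeloid, erythroid and endothelial or stromal cells had lower sums in the cultured cells of both genotypes. B cell markers did too, at 4458 CPM at rest and 2372 CPM after LPS in ΔleftPAL (8 of 8 lower). In ΔIRIS their sums were 3799 and 2385 CPM (7 of 8 lower). Plasmablast markers instead had a higher sum, at 552 CPM at rest and 1443 CPM after LPS in ΔleftPAL (5 of 5 higher). In ΔIRIS that sum was 848 and 992 CPM (3 of 5 higher). The sum of myeloid markers was 360 CPM at rest and 14.1 CPM after LPS in ΔleftPAL and 474 and 20.0 CPM in ΔIRIS, and the sum of erythroid markers was 41305 and 58.2 CPM in ΔleftPAL and 28663 and 124 CPM in ΔIRIS. The T cell sum was 26.2 and 0.483 CPM in ΔleftPAL and 28.0 and 0.478 CPM in ΔIRIS, and the endothelial and stromal sum was 184 and 81.3 CPM and 167 and 74.1 CPM, with Col1a1 and Col3a1 at 0 after LPS in both. The NK cell sum was 7.41 and 1.11 CPM and 4.23 and 0.648 CPM. The part of such cells in the LPS ratios of Crip1, Crip2, Jag2 and Tmem121 was not tested.

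Other rows lie among and around these genes. From Jag2 to Igha the gene model holds 6 more, Mir6941 within Jag2 and Gm26583, 9230104M06Rik, Tex22, 4930427A07Rik and Gm25622 nearer to Igha, of which 1 passed the minimum. This was 4930427A07Rik, which lies between Tmem121 and Crip1, with 373 and 801 counts in resting and LPS-activated ΔleftPAL and 344 and 890 in ΔIRIS cells. Its log2 ratio of ΔIRIS over ΔleftPAL was -0.37 (-0.58 to -0.15) at rest and 0.03 after LPS, so that the lower level of Tmem121 in resting ΔIRIS cells had no counterpart of that size in its neighbour. Its LPS ratio was 0.96 in ΔleftPAL and 1.36 in ΔIRIS, past the 2-fold limit in ΔIRIS.

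Within 1 Mb beyond Jag2, 10 of 23 rows passed the minimum, and within 2 Mb on the far side of the variable genes 6 of 22 did. None of these 16 genes was called apart between the genotypes. Over all tested genes, 1.83% were called higher and 1.02% lower in ΔIRIS at rest, and 0.567% and 1.41% after LPS. At such shares, 0 of 16 does not set these genes apart. The medians of the log2 ratios of these genes were -0.022 at rest and 0.040 after LPS beyond Jag2, and -0.014 and 0.234 on the variable gene side. The gene with the largest difference at rest was Gpr132, a G protein-coupled receptor of lymphocytes and myeloid cells, with 982 counts in ΔleftPAL and 2084 in ΔIRIS (0.83, 0.72 to 0.95). Gpr132 had 780 and 711 counts after LPS and was called lower after LPS in ΔIRIS (-1.56) but not in ΔleftPAL (-0.47). Siva1, Inf2, Cdca4 and 2010107E04Rik were called higher after LPS in both genotypes, with Siva1 at 152 and 941 counts in ΔleftPAL and 151 and 1013 in ΔIRIS, and Akt1 was called higher in ΔIRIS (1.13, against 0.96 in ΔleftPAL). On the variable gene side, Ncapg2 and Cdca7l were called higher after LPS in both and Wdr60 in ΔIRIS.

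**Figure D4:**
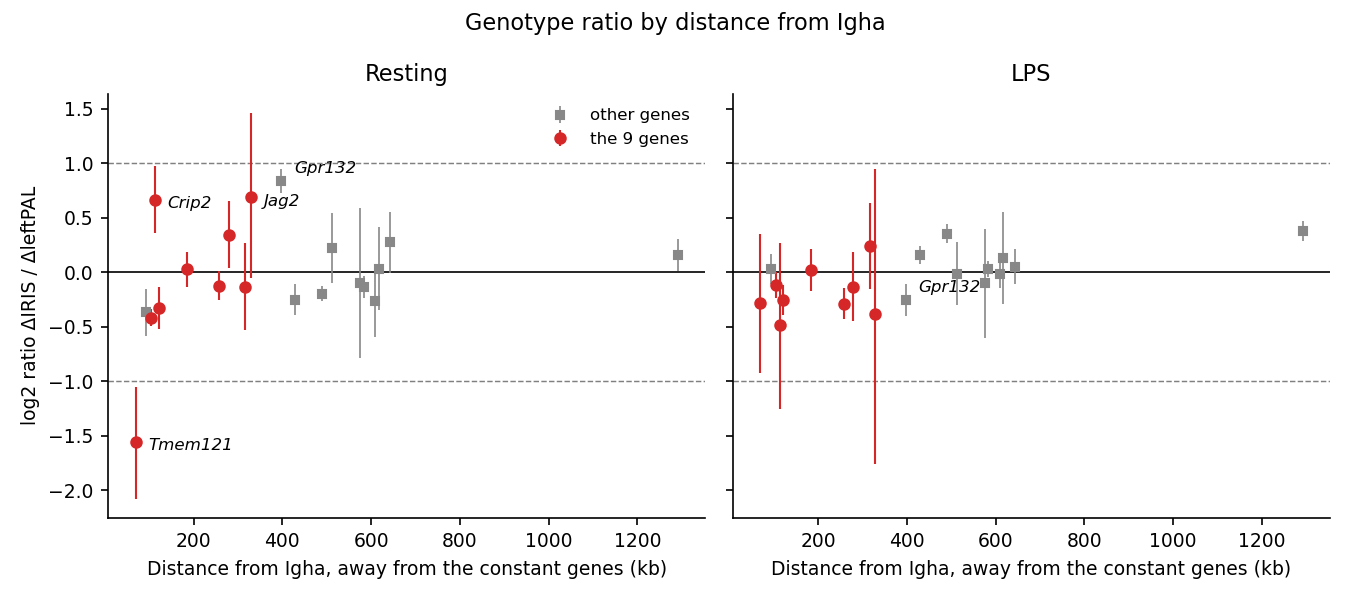
Log2 ratio of ΔIRIS over ΔleftPAL against distance from Igha in kb, in resting (left) and LPS-activated (right) cells, for the 9 genes (red circles) and the other tested genes between them and up to 1 Mb beyond Jag2 (grey squares); bars are 95% exact Clopper-Pearson intervals and dashed lines mark 2-fold. At rest Tmem121, the nearest gene, lay at -1.55 and 4930427A07Rik, the next, at -0.37, while Crip2, Jag2 and Gpr132 lay above 0.

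Relatives and partners of the 9 genes were counted over lists of named genes. After LPS, 20.1% of all tested genes were called higher and 15.5% lower in ΔleftPAL, and 21.6% and 17.3% in ΔIRIS, and the counts of the lists stand beside these shares. Of 7 tested small LIM proteins, Crip1 and Crip2 were the 2 called lower after LPS in each genotype, and Fhl3 was called higher in ΔIRIS (1.42, against 0.64 in ΔleftPAL). Csrp2 had log2 ratios of 0.87 and 0.69, Lmo4 of 0.59 and 0.52 and Csrp1 of 0.79 and 0.15. Crip3, under the minimum, had 29 and 4 counts in ΔleftPAL and 17 and 0 in ΔIRIS.

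Of 14 tested NuRD genes, 5 were called higher after LPS in each genotype (20.1% and 21.6% of all tested genes) and 1 lower (15.5% and 17.3%). The histone-binding subunit Rbbp7 (1.85 in ΔleftPAL and 1.80 in ΔIRIS), Cdk2ap1 (1.79 and 1.56), the deacetylase Hdac2 (1.35 and 1.44) and the methyl-DNA-binding protein Mbd3 (1.27 and 1.42) were higher in both. Among the paralogs of Mta1, Mta2 stood at 0.80 and 0.97, which like the 0.84 and 0.92 of Mta1 did not pass the limit, and Mta3 was called lower (-1.17 and -1.11). The median log2 ratio of the NuRD list was 0.76 in ΔleftPAL and 0.90 in ΔIRIS.

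Of 23 tested genes of RNA polymerase III initiation, 3 were called higher and 0 lower in ΔleftPAL, and 6 higher and 2 lower in ΔIRIS, where 20.1% and 21.6% of all tested genes were higher and 15.5% and 17.3% lower, with list medians of 0.49 and 0.55. Brf1, at -0.22 and -0.39, lay below both medians, while Bdp1, another TFIIIB subunit, stood at 0.16 and 0.03, and its paralog Brf2 at 0.53 and -0.04. The polymerase subunit Polr3k was higher (1.16 and 1.38), and Maf1, a repressor of RNA polymerase III, stood at -0.97 and -1.34, called lower in ΔIRIS and not in ΔleftPAL.

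Of 24 tested Notch pathway genes, 2 were called higher after LPS in each genotype (20.1% and 21.6% of all) and 7 lower (15.5% and 17.3%). The receptor Notch1 was higher (1.20 and 1.12) and the receptor Notch2 lower (-1.26 and -1.37), as were the target Hes1 (-3.82 and -3.99), the glycosyltransferase Lfng (-2.18 and -1.79), the ligand Dll1 (-1.64 and -1.76) and Mib2, an E3 ligase of Notch ligands (-1.39 and -1.65). Jag1, the paralog of Jag2, was under the minimum too, with 30 and 7 counts in ΔleftPAL and 64 and 3 in ΔIRIS.

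Of 18 tested Nudix hydrolases, 6 were called higher after LPS in each genotype (20.1% and 21.6% of all) and 1 lower (15.5% and 17.3%), the higher ones among them Nudt1, which removes oxidised nucleotides (2.16 and 2.48), and Nudt5 (1.84 and 1.97), with Nudt14 at -0.21 and 0.16. Of 9 tested BTB adaptors and cullin 3 partners, 0 were called higher and 1 lower, Btbd2 (-1.64 and -1.62), and Pacs1 stood at -0.67 and -0.90 beside the -0.50 and -0.51 of Pacs2. Between the genotypes, at rest and after LPS, 0 genes of the 7 lists above were called apart. Of all tested genes, 1.83% were called higher and 1.02% lower in ΔIRIS at rest, and 0.567% and 1.41% after LPS. The paralog of Tmem121, listed under its older name Cecr6, had 3, 1, 7 and 0 counts in resting and LPS-activated ΔleftPAL and ΔIRIS cells, too few for a ratio.

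**Figure D5:**
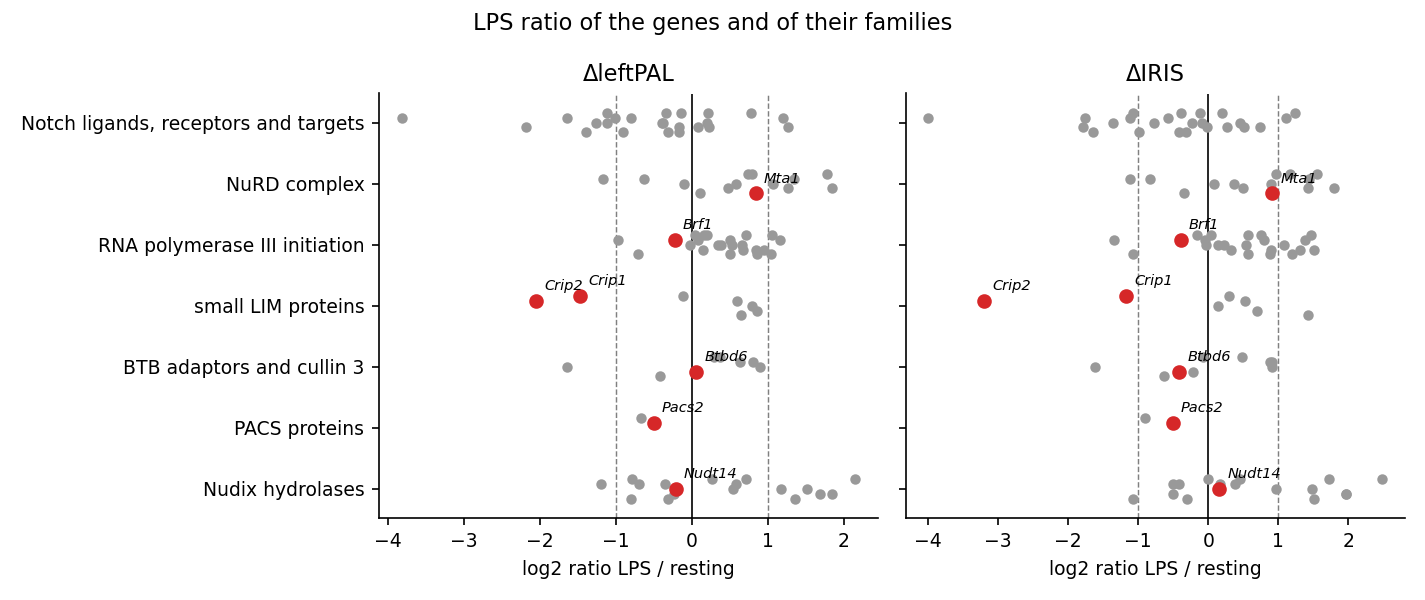
Log2 ratio of LPS-activated over resting cells in ΔleftPAL (left) and ΔIRIS (right) for the tested genes of each list, 1 point per gene, with the genes beyond the 3'RR in red and named; dashed lines mark 2-fold and the vertical offsets within a list carry no value. Crip1 and Crip2 lie past the lower line in both, and Mta1 lies at 0.84 and 0.92.

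At the transcript level, the annotation used for kallisto gave several transcripts for Mta1 and Btbd6 and 1 for each of the other 7 genes. For Mta1, ENSMUST00000109726 took 84.1% of the estimated counts at rest and 81.5% after LPS in ΔleftPAL and 85.2% and 80.6% in ΔIRIS. For Btbd6, ENSMUST00000165079 took 88.9%, 91.7%, 92.2% and 66.5% in resting and LPS-activated ΔleftPAL and ΔIRIS cells, and the remainder went to ENSMUST00000002880. LPS-activated ΔIRIS cells were therefore apart from the other 3 libraries, with 68.6 of 205 estimated counts in the latter transcript against 18.7 to 22.6 in the others. The starts of these transcripts lie at 112976482 and 112976563, so most of their sequence is shared and the split is an estimate. Gene counts of Btbd6 were 71.9% to 81.5% of the kallisto sum and those of Jag2 85.7% to 100%, while those of the other 7 genes were 94.0% to 104%. Brf1 shares 449 exon bases (16.3% of its exon length) with 9230104M06Rik on the other strand.

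The genes most like each of the 8 tested genes over the 4 libraries were found by the root mean square difference of log2(CPM + 0.5) after centring, over 4 points per gene. On this scale the LPS ratio of Crip2 in ΔIRIS was -2.67, against -3.20 without the prior. Tmem121 between genotypes at rest was -1.31, against -1.55. The likeness of these low genes to genes of higher level therefore holds on this scale only. For Tmem121 they were Gm24119 (0.052), Mx2 (0.057) and Zfp94 (0.085), with Mx2, an interferon-induced GTPase, at 678, 304, 345 and 298 counts in resting and LPS-activated ΔleftPAL and ΔIRIS cells. For Crip1 they were Atp5sl, Slc43a2 and Mkl1 (0.013 to 0.021). For Crip2 they were Cd69, an early activation antigen of lymphocytes, Clk1 and Crebrf (0.060 to 0.065), with Cd69 at 3535, 1241, 6131 and 971 counts. For Mta1 they were BC030307, Gm5595 and B130055M24Rik, for Pacs2 Bptf, Vps13b and Atxn2, and for Brf1 St3gal6, 4933407K13Rik and Lrrc8d. For Btbd6 they were Donson, Rb1 and RP23-8J15.4, and for Nudt14 Tbc1d32, Zfp46 and Plscr3.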

How the data were processed

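Per the submitters' processing notes and the study's methods, the authors mapped paired reads of 150 nt from ribosome-depleted, stranded libraries with STAR 2.4.0a to mm10 and deposited unnormalized fragment counts per gene name from featureCounts (Subread 1.4.6-p1, Ensembl release 77, strand setting 1, multi-mapping reads included). They also deposited kallisto 0.42.3 estimated counts for 88198 transcripts and their TPM values, which sum to the same total in each library. The 1 row without a gene name, 0.00876% to 0.0264% of each table total, was left out.

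TMM factors (0.970 to 1.03) came from edgeR 4.0.16 in R 4.3.3. CPM, intervals and ratios were computed in Python 3.11.15 with scipy 1.17.1. With 1 library per group, no test between groups was run and no p-value was computed. Alternatives included size factors from DESeq2 1.42.0, unscaled totals, TMM without immunoglobulin genes, kallisto estimated counts and TPM, and other minimums, priors and fold limits. On simulated data that held counting noise only, with no spread between samples (ΔIRIS over ΔleftPAL after LPS, 11286 genes), 199 of 200 genes changed 4-fold were called with 0 false calls. Of 500 intervals, all of unchanged genes, 473 held the true ratio. Intervals of changed genes were not checked.

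The members and lists were chosen with earlier results of these data known. Genes named beside the 9 are the rows between them and Igha, called genes around them, list members that were called or share a family with a member, and the 3 nearest patterns per gene; markers are named as examples. No per-sample column was left unused (0 columns).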

Additional observations from a re-analysis of the deposited data

Results flagged for a closer look

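Btbd6 and Nudt14 stood out because their LPS ratios had opposite signs in the genotypes. For Btbd6 the log2 ratio was 0.06 in ΔleftPAL and -0.42 in ΔIRIS, a difference (ΔIRIS minus ΔleftPAL) of -0.48. For Nudt14 it was -0.21 and 0.16, a difference of 0.37. The opposite signs depended on the scaling: on TPM both ratios were negative for Btbd6 (-0.24 and -0.79) and Nudt14 (-0.45 and -0.12), and with total counts they were for Btbd6 (-0.032 and -0.46). Among all tested genes, 11.3% had opposite signs. The intervals of the genotypes overlapped for both genes, and with 1 library per group the difference was not tested.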

How the results depend on the processing

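Each ratio of the 9 genes was recomputed under 5 other scalings or tables. Of these 180 values, 168 stayed within the counting interval of the reported ratio and 12 did not, and 6 had the other sign: Pacs2 between genotypes (-0.0037 and -0.0070 at rest, -0.041 after LPS), Btbd6 after LPS in ΔleftPAL (-0.032 and -0.24) and Nudt14 in ΔIRIS (-0.12). Tmem121 at rest ranged from -1.61 to -1.54. On TPM, the median LPS ratio of all genes was -0.27 in ΔleftPAL and -0.26 in ΔIRIS, against 0.12 and 0.13 on TMM-scaled counts, and the share of calls that were higher was 36.1% and 35.0% against 56.5% and 55.5%; between genotypes it was 54.2% against 64.3% at rest and 18.0% against 28.7% after LPS. After LPS in ΔIRIS, Crip1 ranged from -1.41 to -1.01, Mta1 from 0.61 to 1.07 and Btbd6 from -0.79 to -0.36. Kallisto estimated counts called 3 of the genes in ΔIRIS, and so did a minimum of 10 counts or none, which let Jag2 in. Over all genes tested at these settings, 4493 of 11313, 5342 of 13863 and 5500 of 22992 were called after LPS in ΔIRIS.

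With a minimum mean of 200 counts, 4 of the 9 genes were tested, and 1 was called after LPS in ΔleftPAL, 1 in ΔIRIS and 0 between genotypes at rest. Of all 8957 genes tested at that minimum, 3078, 3405 and 182 were called in these comparisons. With a prior of 5 CPM, the calls were 1 after LPS in ΔleftPAL (3 before) and 0 at rest (1 before). Of all 11286 tested genes, that prior called 2702 and 128 in these comparisons. With a fold limit of 1.5 the calls at rest were 2. Among all genes, calls in either direction were 4015 after LPS in ΔleftPAL, 4392 in ΔIRIS, 322 between genotypes at rest and 223 after LPS. A fold limit of 1.5 gave 6590, 6806, 1243 and 729. Between genotypes, a minimum of 200 counts gave 182 at rest and 128 after LPS, a prior of 5 CPM gave 128 and 83, and no minimum gave 486 at rest. The cause was not tested beyond what these settings do by construction. No paired analysis was possible because the labels carry no replicate numbers and each group is 1 library. Depth limits Jag2, with 10 to 46 counts, and Tmem121 and Crip2 after LPS, with 28 to 47 counts. It also limits Tmem121 in resting ΔIRIS cells, with 47 counts, and so its call between genotypes at rest.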
